A study of Mus musculus with 16 samples.

Results

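The enzymes described here join glutathione, glucuronic acid or sulfate to foreign and endogenous molecules. They were taken from the Mouse 430 2.0 GeneChip as the probe sets annotated to a gene symbol that starts with Gsta, Gstm, Gstp, Gstt, Gsto, Gstk, Mgst, Ugt1, Ugt2 or Sult. This gave 60 of the 45101 probe sets, which stand for 46 of the 18829 annotated genes when symbols that share a probe set are counted together, and 11 of these genes had several probe sets. Epithelium was laser-captured from the cecum of adult NMRI mice, an inbred strain, on a standard polysaccharide-rich diet. The mice were germ-free (GF), or had been colonized for 10 days with B. thetaiotaomicron (Bt), with B. longum (Bl) or with both (Bt/Bl). Each state was measured on 2 GeneChips, numbered 9128 and 9129 for GF, 9130 and 9443 for Bt, 9134 and 9135 for Bl, and 9132 and 9133 for Bt/Bl. Both GeneChips of a state were duplicate amplifications of 1 RNA pool from 4 mice, so their spread is technical and every test compares pools, not mice. Where 2 signals are given for a state, they are those of its GeneChips in this order, on a linear scale on which the authors set the trimmed mean of each GeneChip near 1500, and the number of GeneChips limits their precision. Signals of different probe sets are not comparable, because each probe set has its own brightness.

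Both GF GeneChips stood apart from the other 6 in signals outside these enzymes, and their part in the results below was not tested. Fabp6, which carries bile acids in the ileum, read 68029 and 95108 in GF against 1179 to 1798 on the remaining GeneChips. Xist, transcribed from the silenced X chromosome, read 17157 and 22762 against 3753 to 11176, and Eif2s3y of the Y chromosome 71 and 614 against 3201 to 5657. Among the colonized states, Xist was higher in Bt/Bl (7541 and 11176) than in Bt (4908 and 5086) and Bl (4405 and 3753). The part of this in the comparisons with Bt/Bl was not tested. The study's methods describe the mice as male and the labels give cecal epithelium throughout. In every comparison with GF, colonization cannot be told apart from a difference of the GF pool in sex or in position along the gut. The signs of RNA quality went in opposite directions. The 3'-to-5' signal ratio of Gapdh was lower in GF (5.7 and 7.3 against 8.9 to 17.6), and that of Actb was higher (36.9 and 38.8 against 21.4 to 36.3). Of a list of small intestinal absorptive markers with 16 measured genes, 2 were called lower than in GF for Bt, 3 for Bl and 4 for Bt/Bl, whereas Anpep and Slc2a2 were above the median signal in no state. The summed signal of that list, which weights each gene by the brightness of its probe set, ran from 755225 to 878382 in GF, from 694259 to 740642 in Bt, from 820415 to 1082083 in Bl and from 639172 to 677780 in Bt/Bl. Most of it came from Fabp2, a fatty acid-binding protein (505160.5 to 1026032.3). Without Fabp2 the sum was 230828 to 250064 in GF, 80671 to 89751 in Bt, 56051 to 59619 in Bl and 43222 to 49309 in Bt/Bl, so that GF lay above every colonized state. Of 6 measured markers of colonic and cecal absorptive cells, only Aqp8 was called against GF, as higher in each colonized state. For plasma cell and other immune markers the sum was 111677 to 127018 in GF, 16505 to 20105 in Bt, 31913 to 35251 in Bl and 44816 to 60342 in Bt/Bl. Without Igha, the IgA heavy chain, it was 13055 to 15984 in GF and 4334 to 10748 elsewhere. Igha was called lower than in GF in every colonized state, and higher in Bt/Bl than in Bt. The epithelial list of 8 genes was measured throughout, with 0 genes called in any comparison and sums between 988641 and 1455454. Marker sums also differed between colonized states. The goblet cell sum was 860851 to 1013918 in GF, 1175998 to 1193590 in Bt, 1089761 to 1389362 in Bl and 861108 to 940122 in Bt/Bl. Of its 7 genes, Muc2 was called higher than in GF in Bt, Clca1 in Bl and 0 in Bt/Bl. For stroma and muscle it was 33241 to 41294 in GF, 35132 to 39184 in Bt, 17084 to 23719 in Bl and 22640 to 24167 in Bt/Bl. The part of such differences in the comparisons between colonized states was not tested. In pooled tissue, fewer cells of a type and less RNA per cell cannot be told apart.

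Conjugation makes lipophilic molecules water-soluble, so that they can be pumped out of the cell. Glutathione transferases attach the thiol of glutathione to electrophiles. The cytosolic classes are alpha (Gsta), mu (Gstm), pi (Gstp), theta (Gstt) and omega (Gsto), Gstk1 is found in mitochondria and peroxisomes, and the Mgst enzymes sit in membranes, where some also work on leukotrienes or lipid peroxides. UDP-glucuronosyltransferases (Ugt) of the endoplasmic reticulum transfer glucuronic acid to bilirubin, bile acids, steroids and plant phenols, and cytosolic sulfotransferases (Sult) transfer sulfate from PAPS to phenols, catecholamines and steroids. The gut epithelium carries members of all these families, and gut bacteria can split some of the conjugates again. Many of the genes are targets of Nrf2 (Nfe2l2), which binds the antioxidant response element (ARE), and of the aryl hydrocarbon receptor (Ahr), which binds the xenobiotic response element (XRE).

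Promoters of 2 members are shown because Gsta3 had the lowest unadjusted p of any member in a comparison of Bt/Bl with another state and Mgst1 the lowest adjusted p of all members, and because a promoter of each holds the ARE core. Mgst1 has a second promoter, at chr6:138141337-138141586, which holds 0 matches and is not shown. Each sequence is the 250 bases before a RefSeq transcript start on GRCm38.p6, from 5′ to 3′ on the strand of the gene, at chr1:21240335-21240584 (plus strand) for Gsta3 and chr6:138140277-138140526 (plus strand) for Mgst1. Capitals mark the match to TGACNNNGC, which lies 121 bases before the start on the plus strand in Gsta3 and 56 bases before it on the opposite strand in Mgst1.
Gsta3: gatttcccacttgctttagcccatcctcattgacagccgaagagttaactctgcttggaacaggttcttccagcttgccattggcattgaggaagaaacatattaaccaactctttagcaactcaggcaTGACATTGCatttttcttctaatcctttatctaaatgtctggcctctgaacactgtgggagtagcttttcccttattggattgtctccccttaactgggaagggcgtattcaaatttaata
Mgst1: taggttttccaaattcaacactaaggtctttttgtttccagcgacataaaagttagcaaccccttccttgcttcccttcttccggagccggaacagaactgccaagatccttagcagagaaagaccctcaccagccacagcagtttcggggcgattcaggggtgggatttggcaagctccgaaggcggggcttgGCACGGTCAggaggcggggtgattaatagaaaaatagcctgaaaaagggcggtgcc
Both strands were searched from 250 bases before to 50 bases after the start. The ARE core was found in 4 of 61 promoters of members (6.56%; Gsta3, Gstm5, Gstm7 and Mgst1) and in 12.4% of all 32851 promoters. The XRE core GCGTG was found in 14 of 61 (23.0%) and in 32.4% of all promoters. These are matches of letters within this window, and the GeneChips did not measure binding.

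A probe set was taken as measured in a state when both GeneChips of the state exceeded 583.1, the median of all values of the table. By this mark 34 of the 60 probe sets were measured in GF, 37 in Bt, 38 in Bl, as well as 37 in Bt/Bl, where 34.0%, 35.7%, 37.3% and 35.3% of all probe sets were. In all 4 states 32 were measured (53.3%, against 21.4% of all probe sets), and in at least 1 state 41 (68.3%, against 55.2%). Those 41 probe sets, of 31 genes, were tested. They comprised 19 of 27 probe sets of cytosolic and mitochondrial glutathione transferases, 4 of 5 of the Mgst genes, 9 of 13 of the Ugt genes and 9 of 15 of the sulfotransferases. The other 19 probe sets included the only ones of 15 genes. These genes were Gsta2 (apart from a probe set that it shares), Gstm6, Gsto2, Gstp3, Gstt1, Gstt4, Sult1e1, Sult2a2, Sult2a8, Sult3a1, Sult6b1, Ugt2a3, Ugt2b1, Ugt2b37 and Ugt2b38. Sult1e1, the estrogen sulfotransferase, had signals between 40.7 and 218.2 over the 8 GeneChips, and Sult6b1 between 10.4 and 222.2. Second probe sets of Gsta3, Gstm3, Mgst3 and Sult4a1 were also not measured in any state. Of the 19, 7 exceeded the median on no GeneChip and 11 were at or under the floor of 144.7 on at least 4.

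**Figure D1:**
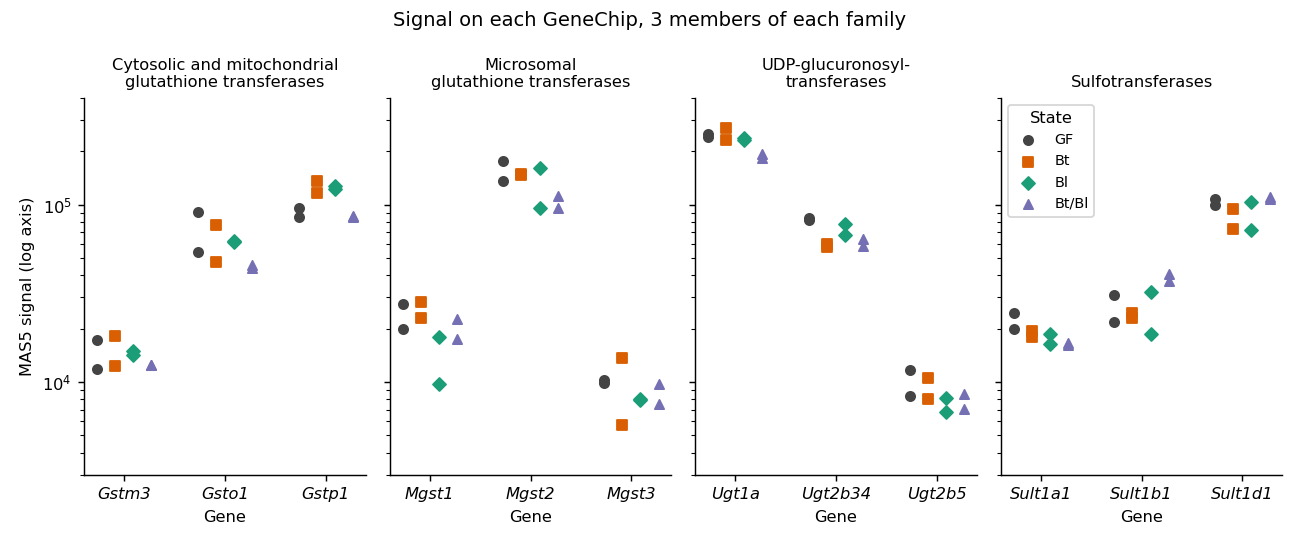
MAS5 signal (log axis) on each GeneChip for the 3 brightest measured genes of each family, with 1 probe set per gene and 2 points per state for GF, Bt, Bl and Bt/Bl. The points of a gene are to be compared only with each other. Those of Ugt1a lie between 183625 and 269228, and those of Mgst3 between 5719.8 and 13585.

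No member differed between any 2 states at an adjusted p under 0.05 in limma's moderated test with Benjamini-Hochberg adjustment over all 24865 probe sets tested. In Bt against GF 0 of 41 were called (0.169% of all probe sets tested were), in Bl against GF 0 (0.137%) and in Bt/Bl against GF 0 (0.197%). Between colonized states the counts were 0 in Bl against Bt (0.0442%), 0 in Bt/Bl against Bt (0.0483%) and 0 in Bt/Bl against Bl (0.0563%). An F-test over the 4 states called 0 members (0.290%), with a lowest adjusted p of 0.304. At an unadjusted p under 0.05 the members numbered 4 in Bt against GF (9.49% of all probe sets), 3 in Bl against GF (11.7%) and 5 in Bt/Bl against GF (7.39%). They numbered 4 in Bl against Bt (11.9%), 5 in Bt/Bl against Bt (10.5%), 5 in Bt/Bl against Bl (11.8%) and 7 in the F-test (13.8%). The lowest adjusted p of any member and comparison was 0.197, for Mgst1 in Bl against Bt.

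The size of a difference between 2 pools that these data leave possible was therefore read from the 95% confidence interval of each log2 difference. These intervals rest on technical spread and do not bound a difference between the mice of 2 states. The interval lay within a 2-fold difference either way for 19 of 41 probe sets in Bt against GF (13.4% of all probe sets), for 17 in Bl against GF (12.1%) and for 14 in Bt/Bl against GF (13.8%). Within a 4-fold difference lay 30 (39.3%), 30 (38.5%) and 31 (40.7%). For the others a larger difference was not excluded, and their p values do not show that the states were alike. The probe sets bounded within 2-fold in Bt/Bl against GF came from Gstk1, Gstm1, Gstm3, Gstp1, Mgst1, Mgst3, Sult1a1, Sult1d1, Ugt1a, Ugt2b34 and Ugt2b5. In that comparison the width of the interval on the log2 scale was 0.9 for a probe set of Ugt2b34, 0.92 for Sult1a1, 0.95 for Gstp1 and 1.17 for Mgst2, and 4.98 for Sult1c1, whose signals crossed the median.

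**Figure D2:**
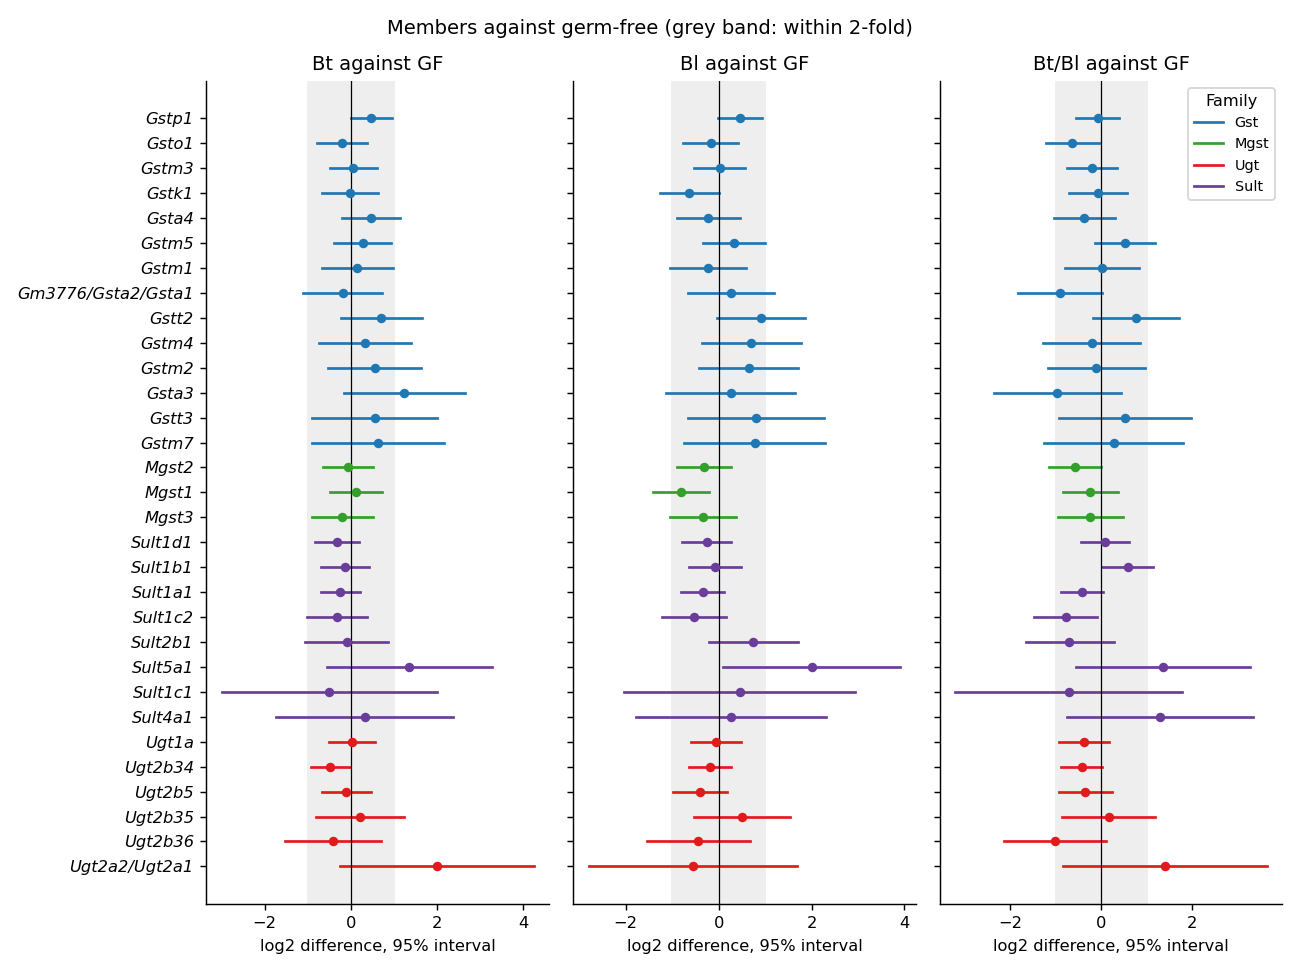
Log2 difference of Bt, Bl and Bt/Bl from GF (points) with its 95% confidence interval (lines) for the brightest measured probe set of each of 31 genes, coloured by family, with a grey band for differences within 2-fold. Intervals of the bright genes lie inside or near the band, and those of Sult5a1, Sult1c1, Sult4a1 and the probe set of Ugt2a2 and Ugt2a1 reach far beyond it.

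**Figure D3:**
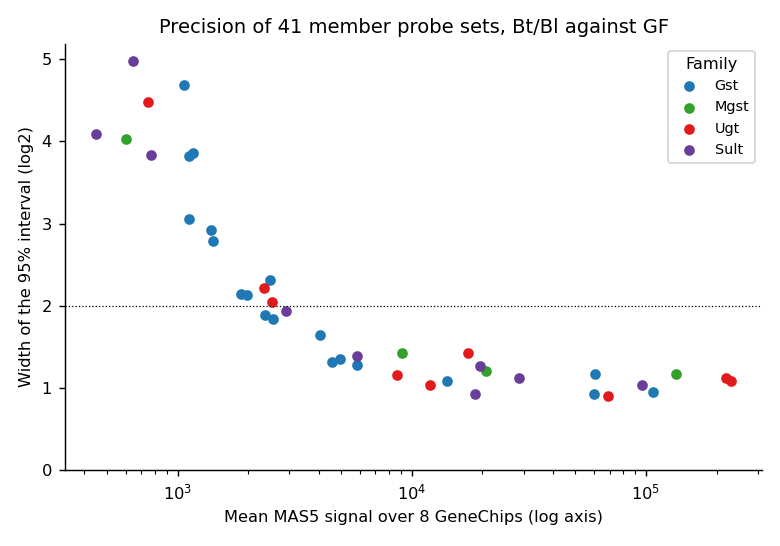
Width of the 95% interval of the log2 difference of Bt/Bl from GF against the mean signal over the 8 GeneChips (log axis) for the 41 tested probe sets, coloured by family, with a dotted line at a width of 2. The widths run from 4.98 for Sult1c1 down to 0.9 for a probe set of Ugt2b34.

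Gstp1, the pi-class enzyme, had signals of 96403 and 85424 (GF), 136031 and 116959 (Bt), 127033 and 122103 (Bl), then 86854 and 85114 (Bt/Bl). Both mono-associated states lay above GF and above Bt/Bl without overlap, and Bt/Bl lay within or below the range of GF. The log2 difference from GF was 0.48 (SE 0.22, unadjusted p = 0.0494, adjusted p = 0.526 in limma) in Bt, 0.46 (SE 0.22) in Bl and -0.08 (SE 0.22) in Bt/Bl. Bt/Bl differed from Bt by -0.55 (SE 0.22, adjusted p = 0.389) and from Bl by -0.53 (SE 0.22, adjusted p = 0.358). Gsto1, an omega-class enzyme that also reduces dehydroascorbate, had 2 probe sets. The first read 57951 and 68943 (GF), 74142 and 65354 (Bt), 58222 and 71327 (Bl), then 44240.4 and 41117 (Bt/Bl), so that Bt/Bl was below the other 6 GeneChips. The second read 44198 and 45445 in Bt/Bl and between 47531 and 90542 elsewhere, with Bt/Bl again lowest. The differences of Bt/Bl from GF were -0.57 (SE 0.22, adjusted p = 0.542) and -0.64 (SE 0.27, adjusted p = 0.617). The first probe set of Gsto1 differed by -0.71 (SE 0.22, adjusted p = 0.279) from Bt and by -0.60 (SE 0.22, adjusted p = 0.29) from Bl.

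Among the tested probe sets of the alpha class, which acts on products of lipid peroxidation and on steroid intermediates, Gsta3 showed the widest log2 spread between states. Its signals were 1313 and 948 (GF), 2656 and 2632 (Bt), 1549 and 1147 (Bl), then 533 and 612 (Bt/Bl), where one GeneChip was under the median and the state did not count as measured. Bt lay above the 6 other GeneChips and Bt/Bl below them. The log2 differences of Gsta3 from GF were 1.24 (SE 0.65, adjusted p = 0.582) in Bt, 0.26 (SE 0.65) in Bl and -0.97 (SE 0.65, adjusted p = 0.842) in Bt/Bl. Bt/Bl was 2.21 below Bt (95% interval -3.61 to -0.82, unadjusted p = 0.00409, adjusted p = 0.271). The second probe set of Gsta3 was not measured in any state (44.5 to 672), so this rests on 1 probe set. In that comparison its fold change also had a lower 90% confidence bound over 2 with a signal difference over 10, which held for 1 of 41 members and 2.46% of all probe sets. The probe set shared by Gsta1, Gsta2 and Gm3776 read 2639.9 and 2956 (GF), 1977 and 3051 (Bt), 4030.2 and 2810.4 (Bl), then 1596 and 1386 (Bt/Bl), and which of the 3 genes gave the signal cannot be told. Its Bt/Bl values were the lowest, with a difference of -0.91 (SE 0.43, adjusted p = 0.682) from GF and -1.18 (SE 0.43, adjusted p = 0.292) from Bl. Gsta4, which detoxifies hydroxynonenal, read 6826 and 6750.4 in Bt and between 2999.9 and 5116 elsewhere. It differed from Bt by -0.69 (SE 0.32, adjusted p = 0.405) in Bl and by -0.85 (SE 0.32, adjusted p = 0.348) in Bt/Bl.

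Gstm3, a mu-class gene, read 17275 and 11827 (GF), 18140.2 and 12250 (Bt), 14245 and 14872 (Bl), then 12450.2 and 12454 (Bt/Bl), and the groups overlapped except for Bl and Bt/Bl. Its differences from GF were 0.06, 0.03 and -0.20 (SE 0.26 each). The 4 probe sets of Gstm1 did not give the same picture. The brightest differed from GF by 0.15 (Bt), -0.22 (Bl) and 0.02 (Bt/Bl) (SE 0.38 each), whereas the dimmest read 152 and 406 in GF and between 762 and 2124 elsewhere. That dimmest probe set differed by 2.36 (Bt), 2.40 (Bl) and 2.48 (Bt/Bl) (SE 0.90 each, adjusted p = 0.386, 0.304 and 0.515). It passed the filter through the colonized states only, so its low signal in GF was partly set by the filter. Gstm5 read 3552 and 3862 in GF and between 3877 and 5568 elsewhere, with differences of 0.28, 0.33 and 0.53 (SE 0.31 each). Gstm2 read 1320.1 and 1678 (GF), 2637 and 1798 (Bt), 2348 and 2323 (Bl), then 1347 and 1406 (Bt/Bl). Gstm4 was highest in Bl (2394 and 3032) and Gstm7 differed between its 2 probe sets, by 0.64 and -0.08 in Bt.

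The theta-class gene Gstt2 read 1322 and 1698 (GF), 2386 and 2525 (Bt), 3206 and 2491 (Bl), then 2044 and 3154 (Bt/Bl). GF lay below the 6 other GeneChips. The differences were 0.71 (adjusted p = 0.671), 0.92 (adjusted p = 0.446) and 0.76 (adjusted p = 0.791), each with an SE of 0.44. Gstt3 read 1141 and 783 (GF), 811 and 2373 (Bt), 1788 and 1516 (Bl), then 1205 and 1534 (Bt/Bl). Its duplicates in Bt were as far apart as any states, and the differences were 0.55, 0.80 and 0.52 (SE 0.69 each). Gstk1 read 6927 and 6003 (GF), 5128 and 7854 (Bt), 3690.1 and 4703 (Bl), then 5919.8 and 6336 (Bt/Bl). Both Bl values of Gstk1 were the lowest, 0.63 below GF (SE 0.30, adjusted p = 0.436).

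Among the membrane-bound transferases, Mgst2 can make leukotriene C4. Its signals were 135512 and 176906 (GF), 147476 and 148391 (Bt), 95782 and 161008 (Bl), then 111684 and 95981 (Bt/Bl), with wide duplicates in Bl. Its difference from GF was -0.07 (Bt), -0.32 (Bl) and -0.58 (Bt/Bl) (SE 0.27 each, adjusted p = 0.678 in Bt/Bl), and Bt/Bl did not overlap GF. The brighter probe set of Mgst1, an enzyme of the endoplasmic reticulum and the outer mitochondrial membrane, read 20017 and 27390 (GF), 28098 and 22847 (Bt), 9805 and 18042 (Bl), then 17428 and 22592 (Bt/Bl). Bl lay below GF and below Bt without overlap, by 0.82 (SE 0.29, adjusted p = 0.272) and 0.93 (SE 0.29, adjusted p = 0.197). The dimmer probe set of Mgst1 went another way, with 1079 and 724 (GF), 180.5 and 151 (Bt), 898 and 1056 (Bl), then 636 and 104 (Bt/Bl). It differed from GF by -2.42 in Bt (SE 0.95, adjusted p = 0.401) and by 0.14 in Bl, so the 2 probe sets of Mgst1 disagree on which state is low. The dimmer one passed the filter through GF and Bl only, so its low signal in Bt was partly set by the filter. Mgst3 read 9891 and 10319 (GF), 13585 and 5719.8 (Bt), 7963 and 8026 (Bl), then 9709 and 7482 (Bt/Bl), with differences of -0.20, -0.34 and -0.25 (SE 0.33 each).

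Sult1d1, which sulfates catecholamines and phenols in mice, read 100149.7 and 107291 (GF), 94637 and 73187 (Bt), 72338 and 104130 (Bl), then 108203 and 110791 (Bt/Bl) on its brighter probe set. Bt lay below GF and Bt/Bl above it, each without overlap. Such opposite sides in Bt and Bt/Bl were seen for 2 of 41 members, this probe set and that of Gsta3, and for 4.13% of all probe sets. The differences of Sult1d1 from GF were -0.32 (Bt), -0.26 (Bl) and 0.08 (Bt/Bl) (SE 0.24 each), and on the dimmer probe set 0.08, 0.10 and 0.34 (SE 0.30 each). Sult1b1, which sulfates thyroid hormones and phenols, read 21749.9 and 31132 (GF), 23105 and 24437 (Bt), 18726 and 32378 (Bl), then 40419 and 37289 (Bt/Bl). Both Bt/Bl values were above the other 6, by 0.58 over GF (SE 0.26, unadjusted p = 0.045, adjusted p = 0.653), 0.71 over Bt (adjusted p = 0.348) and 0.66 over Bl (adjusted p = 0.34). Sult1a1, a phenol sulfotransferase, read 24569.9 and 19796 (GF), 19363 and 17998 (Bt), 16358 and 18631 (Bl), then 16090.2 and 16641 (Bt/Bl). GF lay above the 6 others, and the differences were -0.24, -0.34 and -0.43 (SE 0.22 each). Sult1c2 read 5803 and 9584 in GF and 4266 and 4432 in Bt/Bl, a difference of -0.78 (SE 0.33, adjusted p = 0.594). Sult2b1, which sulfates cholesterol, read 2349 and 1159.9 in Bt/Bl against 5459 and 3702 in Bl, a difference of -1.45 (SE 0.45, adjusted p = 0.23), with GF (3142 and 2278) and Bt (2147 and 2933) between them in their means.

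Among the dim sulfotransferases Sult5a1 was measured in the colonized states but not in GF. It read 341 and 263 (GF), 723 and 808 (Bt), 1025 and 1401 (Bl), then 961 and 619 (Bt/Bl), with GF below the 6 others. The log2 differences were 1.35 (SE 0.90, adjusted p = 0.694), 2.00 (SE 0.90, unadjusted p = 0.0415, adjusted p = 0.403) and 1.36 (SE 0.90, adjusted p = 0.834). Sult4a1 was measured in Bt/Bl only (664 and 709.9) and lay between 96.3 and 618 elsewhere, a difference of 1.29 (SE 0.96, adjusted p = 0.86) from GF. Sult1c1 was measured in Bl only, with 1106 and 596 there and values from 38.6 to 1217 elsewhere, so that its groups overlapped. For these genes the mark of 583.1 decided whether a state counted as measured, and their intervals do not separate the states. Sult5a1, Sult4a1 and Sult1c1 passed the filter only through the states in which they were measured, so a high signal there was partly set by the filter.

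The Ugt1a locus gives rise to several enzymes with separate first exons and shared later exons. Its 3 probe sets are annotated to all 8 symbols (Ugt1a1, Ugt1a2, Ugt1a5, Ugt1a6a, Ugt1a6b, Ugt1a7c, Ugt1a9 and Ugt1a10), so they do not say which enzyme was expressed. The brightest of them read 249160.1 and 241581 (GF), 269228 and 231615 (Bt), 238999 and 232265 (Bl), then 183625 and 193396 (Bt/Bl), where both values were the lowest. Its differences from GF were 0.03, -0.06 and -0.38 (SE 0.25 each, adjusted p = 0.834 in Bt/Bl). The next differed by -0.48 in Bt/Bl (SE 0.26, adjusted p = 0.764) and the dimmest by -0.25 (SE 0.34, adjusted p = 0.941). Ugt2b34, a member of the steroid- and bile acid-conjugating 2B subfamily, read 83807 and 81478 (GF), 58066 and 60217 (Bt), 67447 and 78075 (Bl), then 58489 and 64429 (Bt/Bl). GF lay above the 6 other GeneChips on this probe set and on the second (14297 and 14728 in GF, 9278 to 14197 elsewhere). The differences on the first were -0.48 (SE 0.21, unadjusted p = 0.0365, adjusted p = 0.477), -0.19 (SE 0.21) and -0.43 (SE 0.21), and on the second -0.47, -0.27 and -0.46 (SE 0.24 each).

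Ugt2b5 read 8334 and 11692 (GF), 10590.1 and 8063 (Bt), 6785 and 8168 (Bl), then 8510.4 and 7022 (Bt/Bl). Its differences were -0.10, -0.41 and -0.35 (SE 0.27 each, adjusted p = 0.592 in Bl). Ugt2b36 read 4248 and 2131 in GF and 1695 and 1308 in Bt/Bl, a difference of -1.01 (SE 0.52, adjusted p = 0.73), and Ugt2b35 differed by 0.21, 0.51 and 0.16 (SE 0.48 each). The probe set shared by Ugt2a2 and Ugt2a1, enzymes best known from the olfactory epithelium, was measured in Bt only. It read 130.2 and 734 (GF), 1121 and 1519 (Bt), 152 and 323 (Bl), then 1499 and 496 (Bt/Bl). Bt lay above GF and Bl without overlap, by 2.00 (SE 1.05, adjusted p = 0.582) over GF, and the duplicates of GF and of Bt/Bl spanned most of the range. The probe set passed the filter through Bt only, so its height in Bt was partly set by the filter.

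The custom GlycoGeneChip, hybridized with 2 further GeneChips per state from pools of 4 mice, carries 3 probe sets of these genes, and its table was fitted separately on 451 of its 708 mouse probe sets. Its Ugt1a6a probe set, 1 enzyme of the Ugt1a locus by annotation, read 115691 and 137899 (GF), 110428 and 115752 (Bt), 77776 and 93969 (Bl), then 77034 and 75649.8 (Bt/Bl). Bt overlapped GF, and Bl and Bt/Bl lay below both without overlap. The log2 differences of Ugt1a6a from GF were -0.16 (SE 0.24), -0.56 (SE 0.24, adjusted p = 0.336) and -0.73 (SE 0.24, unadjusted p = 0.00415, adjusted p = 0.116 in limma). On the Mouse 430 2.0 the brightest Ugt1a probe set had differences of 0.03, -0.06 and -0.38 in the same order. Ugt2b5 on the GlycoGeneChip read 14269 and 13197 (GF), 14283 and 13063 (Bt), 11561 and 8134 (Bl), then 10601 and 9102 (Bt/Bl). Bl and Bt/Bl again lay below GF and Bt, with differences from GF of -0.50 (adjusted p = 0.504) and -0.48 (adjusted p = 0.63), each with an SE of 0.29. Ugt2a1 ranged from 349 to 3994 within Bt/Bl alone, and its groups overlapped. Of the 3 members 0 were called in Bt (1.33% of the probe sets tested), 0 in Bl (1.55%) and 0 in Bt/Bl (1.55%) against GF. Whether both array types were hybridized from the same pools is not given in the sources used here.

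**Figure D4:**
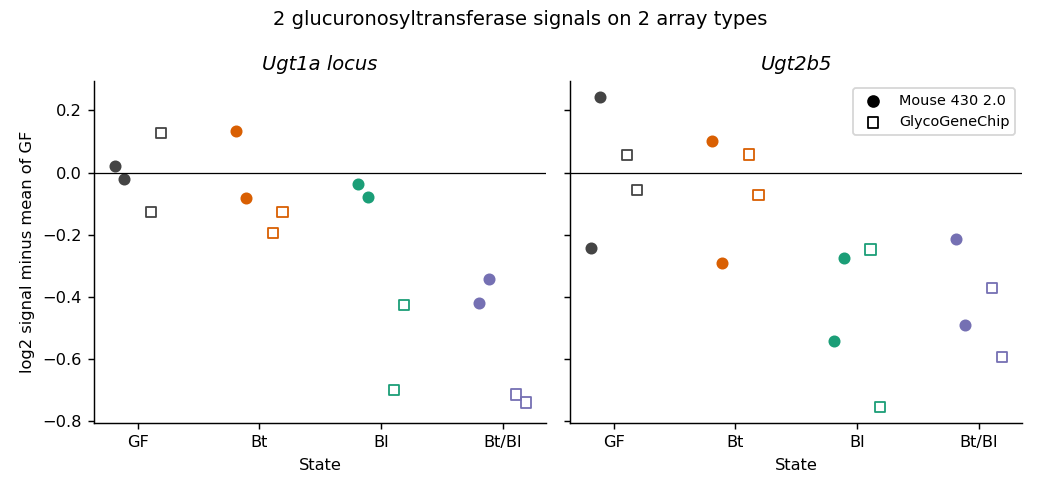
Log2 signal minus the mean of GF on the same array type, for each GeneChip of the 4 states (filled circles, Mouse 430 2.0; open squares, GlycoGeneChip). Left, the brightest Ugt1a probe set beside Ugt1a6a, and right, Ugt2b5. All Bt/Bl points lie below 0, for Ugt1a and Ugt1a6a with mean differences of -0.38 and -0.73.

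The members' median lay furthest from that of all probe sets in the comparisons with Bt/Bl. The median log2 difference over the 41 probe sets was 0.03 in Bt against GF and 0.03 in Bl against GF, where the medians of all probe sets tested were 0.02 and 0.05. It was -0.24 in Bt/Bl against GF, -0.22 against Bt and -0.23 against Bl, where those of all probe sets were 0.01, -0.01 and -0.04. These 3 comparisons share the Bt/Bl GeneChips and are not independent, and the members were tested one by one only. Without overlap of the duplicates, 14 of 41 members were lower in Bt/Bl than in GF (19.8% of all probe sets), 14 lower than in Bt (22.3%) and 14 lower than in Bl (23.7%), each 34.1% of the members. These counts moved with the scaling. With each GeneChip scaled to a common median they were 16 against GF (21.1% of all probe sets), 10 against Bt (16.3%) and 5 against Bl (14.7%). With a common 75th percentile they were 17 (21.1%), 10 (16.8%) and 8 (17.1%), and after quantile normalization 15 (21.2%), 16 (20.2%) and 14 (19.4%). Higher in Bt/Bl without overlap were 9 against GF (21.2%), 5 against Bt (20.7%) and 5 against Bl (18.9%). Each of these counts includes Sult4a1, which passed the filter through Bt/Bl only. For comparison, 12 were higher and 6 lower in Bt than in GF (21.6% and 18.4%), 11 higher and 8 lower in Bl than in GF (23.9% and 17.5%), and 7 higher and 5 lower in Bl than in Bt (20.1% and 17.9%). The 12 and the last 5 include the probe set of Ugt2a2 and Ugt2a1, which passed the filter through Bt only. Further probe sets in these counts were not measured in the lower state, so their place was also partly set by the filter. Higher than in GF, these were Sult5a1 and the dim probe sets of Gstm1. Higher than in Bt was the dimmer one of Gstm7. Gsta3 was such a case where Bt/Bl was lower, and the dimmer probe set of Mgst1 where Bt or Bt/Bl was lower.

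Both Bt/Bl GeneChips lay below all 6 others for 5 probe sets, those of Gsta3, of Gsta1, Gsta2 and Gm3776 together, the 2 of Gsto1 and the brightest of Ugt1a (12.2%, against 4.59% of all probe sets). They lay above all 6 for Sult1b1, Sult1d1 and Sult4a1 (7.32%, against 4.69%). Sult4a1 was tested only because both Bt/Bl GeneChips exceeded the median, so its place there was partly set by the filter. Gsta3 passed the filter through the other states and not through Bt/Bl, so its low place was also partly set by it. The members' median in Bt/Bl was below 0 against GF and against Bt under the deposited scaling and 3 others (-0.29 to -0.22 and -0.22 to -0.10), whereas against Bl it turned under 1 of them. With each GeneChip scaled to a common median, the median of all probe sets moved to -0.04, 0.15 and 0.28 in Bt/Bl against GF, Bt and Bl, and that of the members was -0.29, -0.10 and 0.07. Relative to all probe sets the members were then at -0.25, -0.25 and -0.21, against -0.24, -0.22 and -0.19 with the deposited scaling. Under that median scaling 2 probe sets remained below all 6 others, Gsta3 and the one shared by Gsta1, Gsta2 and Gm3776 (2.95% of all probe sets), and Gsto1, Ugt1a, Sult1b1 and Sult1d1 no longer lay beyond them. With 75th percentile scaling 3 lay below all 6 (3.19%), those 2 and Gstp1, and Sult1b1 stayed above them. After quantile normalization 7 lay below (4.16%), among them Gsto1 and Ugt1a, and Sult1b1 and Sult1d1 stayed above. Without GeneChip 9135 of Bl the members' median relative to all probe sets in Bt/Bl against Bl was 0.17, and without 9130 of Bt it was -0.04 in Bt/Bl against Bt, over the 46 members that then passed the filter.

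**Figure D5:**
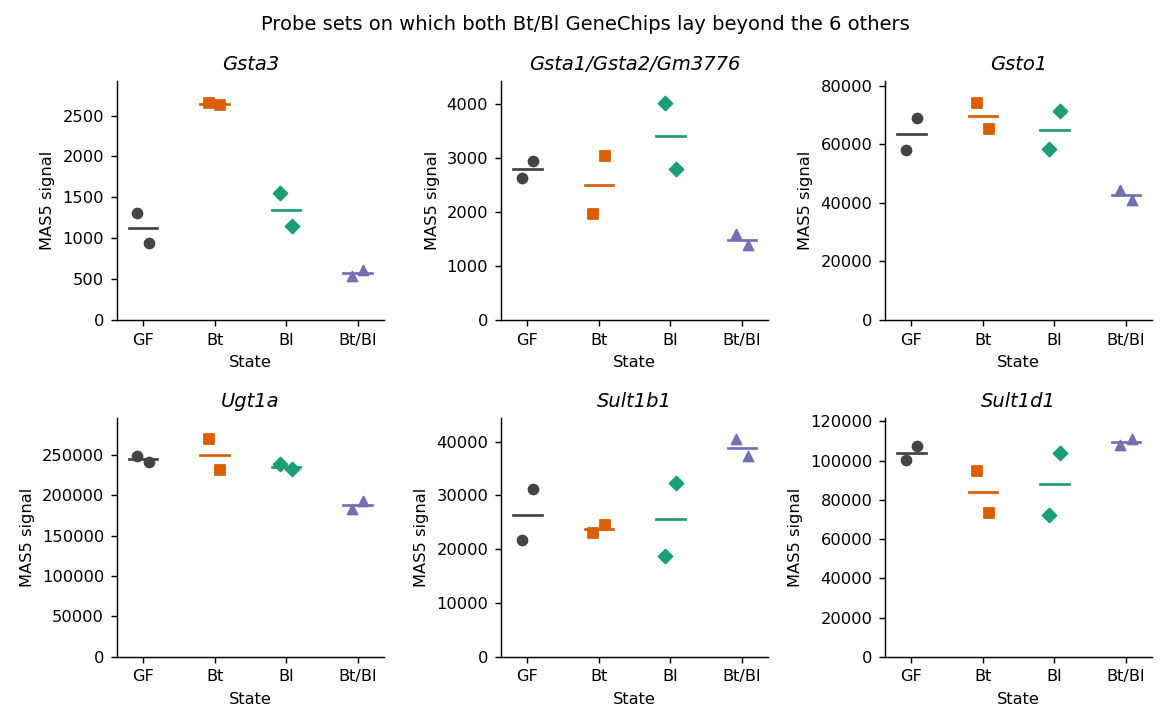
MAS5 signal on each GeneChip (points) and mean of the duplicates (bars) in GF, Bt, Bl and Bt/Bl for 6 probe sets on which both Bt/Bl GeneChips lay beyond the other 6, on axes that start at 0. Gsta3 reads 533 and 612 in Bt/Bl and at least 948 elsewhere, and Sult1b1 reads 40419 and 37289 in Bt/Bl and at most 32378 elsewhere.

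GF was below all 6 other GeneChips for a probe set each of Gstm1, Gstm5, Gstt2 and Sult5a1 (4 of 41, 9.76%, against 4.40% of all probe sets) and above them for Sult1a1 and both probe sets of Ugt2b34 (3 of 41, 7.32%, against 4.04%). Sult5a1 and that probe set of Gstm1 passed the filter through the colonized states only, so their low place in GF was partly set by the filter. Bt was above all others for Gsta3 and Gsta4 (2 of 41, against 6.03%) and below them for 0 (4.23%). Bl was above all others for Gstm4, Sult2b1 and Sult5a1 (3 of 41, against 7.96%) and below them for Gstk1 (1 of 41, against 4.38%). Across families, the median difference of the cytosolic and mitochondrial glutathione transferases was 0.33 in Bt against GF, 0.27 in Bl against GF, -0.08 in Bt/Bl against GF and -0.36 in Bt/Bl against Bt. For the glucuronosyltransferases the first 3 medians were -0.12, -0.23 and -0.38, and for the sulfotransferases -0.13, 0.10 and 0.08.

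The genes that supply, use or follow these enzymes were read from 5 lists. In the list of glutathione supply and use, 14 genes were tested and 0 passed the test in any comparison. Gclc, whose enzyme catalyses the limiting step of glutathione synthesis, differed from GF by -0.05, -0.03 and -0.09 (SE 0.23 each), and its signals lay between 11022 and 13591 on the 8 GeneChips. Gpx2, the glutathione peroxidase of the gut epithelium, read 1689.6 and 3132 (GF), 4773 and 6542 (Bt), 3371 and 2306 (Bl), then 3991 and 3478 (Bt/Bl). Bt lay above all others, by 1.28 over GF (SE 0.40, adjusted p = 0.292). Of 14 tested targets of Nrf2 outside the members, 1 was called. This was Me1, the cytosolic malic enzyme, higher in Bt (5932 and 7082) than in GF (102 and 78.3, both under the floor of 144.7), by at least 44.8-fold (adjusted p = 0.0136). The same probe set read 1396 and 1276 in Bl, then 201 and 99.8 in Bt/Bl. It passed the filter through Bt and Bl only, so a high signal there was partly set by the filter. The second probe set of Me1 differed by 0.31 (SE 0.76, adjusted p = 0.941), so the call rests on 1 probe set. Leaving out any 1 GeneChip kept the log2 difference of the called probe set between 5.35 and 5.6, against 5.49 with all 8, but the adjusted p rose to between 0.0523 and 0.181. It was also over the threshold with no filter (0.104) and with no intensity trend (0.0639). Nqo1, a quinone reductase and a usual Nrf2 target, differed from GF by 0.23, 0.12 and -0.52 (SE 0.46 each).

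Of 11 tested genes that make or move the donors UDP-glucuronate and PAPS, or take off the groups again, 0 were called. Papss1, a synthase of PAPS, read 6192 and 6073 in GF and 3498 and 1422 in Bt, a difference of -1.46 (SE 0.40, unadjusted p = 0.00238, adjusted p = 0.226), and Papss2 differed by -0.63 (SE 0.25, adjusted p = 0.422) in Bt. Ugdh, which makes UDP-glucuronate, differed by -0.26, -0.34 and -0.42 (SE 0.26 each). Of 8 tested efflux pumps 0 were called, and Abcc2, the apical conjugate pump, was above the median in no state. Of 15 tested regulators 0 were called. Nfe2l2 differed from GF by -0.26, -0.67 (adjusted p = 0.285) and -0.18 (SE 0.24 each) and Ahr by -0.61, -0.41 and -0.02 (SE 0.39 each). The list medians in Bt/Bl against GF were -0.05 for glutathione supply and use, -0.01 for the targets of Nrf2, -0.09 for the donors, -0.18 for the pumps and -0.02 for the regulators, where that of all probe sets was 0.01. In Bt/Bl against Bt they were -0.34, -0.34, 0.58, 0.16 and 0.16 in the same order, where that of all probe sets was -0.01. In Bt/Bl against Bl they were -0.34, -0.20, 0.11, 0.11 and 0.39, where that of all probe sets was -0.04. At an unadjusted p under 0.05, the comparison of Bt/Bl with Bt had 3 lower and 0 higher of 14 tested genes of glutathione supply and use. It had 3 lower and 0 higher of 14 targets of Nrf2, and 3 higher and 0 lower of 11 genes of the donor list. The pumps and the regulators had 0 lower and 0 higher. Of all probe sets tested, 5.53% were lower and 4.95% higher. In Bt against GF, 3 donor genes were lower and 0 higher (4.36% and 5.12% of all probe sets). Against Bl, 4 genes of glutathione supply and use, 2 targets of Nrf2 and 1 donor gene were lower and 0 higher. Of the regulators 1 was lower and 1 higher there (6.37% lower and 5.40% higher of all probe sets). In Bt/Bl against GF, 2 genes of glutathione supply and use were lower and 0 higher, and 0 donor genes went either way. Of the targets of Nrf2 1 was lower and 1 higher, and 1 regulator was higher (3.38% lower and 4.01% higher of all probe sets). The lists were not tested as sets.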

How the data were processed

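Intensity values (MAS5 signals on a linear scale) were used as deposited. Per the submitters' notes the authors made them with MAS5, and the trimmed mean of every Mouse 430 2.0 GeneChip was 1500. Their own analysis used dChip, and detection calls were not used here. RNA was amplified with RiboAmp after laser capture, and the study's methods describe both Mouse 430 2.0 GeneChips of a state as amplifications of 1 pool, so the p-values measure technical spread.

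Signals were raised to a floor of 144.7 (the 25th percentile of all values) and log2-transformed. Control probe sets were left out, and the 24865 that passed 583.1, the median, on each GeneChip of 1 state or more entered the tests. limma 3.58.1 in R 4.3.3 fitted the 4 states over the 8 GeneChips (4 residual degrees of freedom, intensity trend), with Benjamini-Hochberg adjustment per comparison and a threshold of 0.05. The steps were tested on simulated data. The GlycoGeneChip was fitted alone, with a floor of 268.1 and a filter of 860.3.

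Symbols came from the platform annotation, in which 34958 probe sets have 1 symbol, 932 several and 9211 none. A probe set with several symbols was taken when any of them matched, which adds the one shared by Gsta1, Gsta2 and Gm3776 to 59 others. Shared probe sets can bind transcripts of related genes, so their signal is not assigned to a single gene. Promoter sequences came from RefSeq on GRCm38.p6.

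Named by rule were called genes, the 3 brightest genes of each family, the 3 largest estimated differences each way against GF without overlap, and genes measured in some states only. The remaining members are given for completeness, and the uncalled pathway genes that are named were chosen after their values were seen. The members and lists were chosen with earlier results of these data known. Alternatives changed the scaling, floor, filter, intensity trend, GeneChips in the fit, call rule and left-out GeneChip.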

Additional observations from a re-analysis of the deposited data

Results flagged for a closer look

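For 2 members the Bt and Bt/Bl GeneChips lay on opposite sides of GF without overlap, which held for 4.13% of all probe sets tested. Gsta3 lay above GF in Bt (2656 and 2632 against 1313 and 948) and below it in Bt/Bl (533 and 612). Its log2 difference of Bt/Bl from Bt was -2.21 (SE 0.65, adjusted p = 0.271 in limma). Sult1d1, on its brighter probe set, lay below GF in Bt (94637 and 73187 against 100149.7 and 107291) and above it in Bt/Bl (108203 and 110791). Its difference of Bt/Bl from Bt was 0.4 (SE 0.24, adjusted p = 0.622). Neither difference passed the test.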

How the results depend on the processing

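No member was called in 73 of 77 refits that changed a setting and in 59 of 64 that left out 1 GeneChip. Fitting only the GeneChips compared called 1 member each in Bt against GF (the dimmer probe set of Mgst1, adjusted p = 0.0423), in Bl against Bt (the same probe set, adjusted p = 0.0312) and in Bt/Bl against Bt (Sult1b1, adjusted p = 0.0494), where 807, 964 and 816 probe sets were called in all. The Mgst1 probe set passed the filter in those refits only through GF or only through Bl, where it was high. Its difference from Bt was thus partly set by the filter. The study's fold bound and signal difference called 1, Gsta3 in Bt/Bl against Bt. Over the GeneChips left out in turn, the count ranged from 0 to 1 in Bt against GF, Bl against Bt, Bt/Bl against Bt and the F-test, and was 0 throughout in the other 3 comparisons. The 1 came each time without GeneChip 9130 of Bt and was the dim probe set of Gstm3, which then passed the filter (adjusted p = 0.0147, 0.0285, 0.0151 and 0.0492). The lone Bt GeneChip is assumed there to vary like the other states. On the GlycoGeneChip the count ranged from 0 to 1, with Ugt1a6a called in Bt/Bl against GF without GeneChip 9181 of Bl (adjusted p = 0.0248). Of 59 gene and comparison pairs named by rule, 38 kept their sign in every setting, and 45 of 985 refits turned it, with 0 called. The causes were not tested. No paired analysis was possible because the labels carry no replicate numbers, as every GeneChip number is unique. Signals near the floor limit what can be said of the dim genes, and the 2 GeneChips of a state do not measure the spread between mice.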
